A study of Mus musculus with 8 samples.

Results

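Full-length TOX (TOXFL) was introduced into activated mouse CD8 T cells with a vector that also encoded GFP, and the GFP-positive cells were compared with GFP-negative cells. This comparison takes 4 of the 8 libraries of the series, chosen by library name. They are 2 libraries of GFP-positive cells (TOXFL-positive, or the positive libraries) and 2 of GFP-negative cells (TOXFL-negative, or the negative libraries). The other 4 libraries have the same layout for a second construct, TOXdeltaN. They entered the model to share its estimate of the spread and to test where the effects differ. In the blocked fit described below they also helped to set the shift between replicate numbers. All groups came from naive CD3+CD8+ T cells, taken from spleens of OTI mice (C57BL/6-Tg(TcraTcrb)1100Mjb/J), whose transgenic T cell receptor recognises an ovalbumin (OVA) peptide. The animals' age is not among the labels. All cells, GFP-negative ones too, had been stimulated with that peptide for 3 days in cultures that were transduced at 24 h, and were sorted on day 5. GFP was translated from the same transcript as TOX through an internal ribosome entry site, and only the brightest 20% of GFP-positive cells were kept. A difference between these groups therefore includes that of construct, vector and selection for bright GFP, and cells with GFP alone were not analysed here. Whether the 2 libraries of a group stem from different mice is not in the labels, so the spread that the p-values rest on is that of these libraries and may be technical. All 31815 gene rows of the count table were considered, of which 13329 had enough counts to be tested.

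TOX is a nuclear protein that binds DNA through an HMG box. It acts in thymocyte development, and in CD8 T cells it is induced by persistent antigen and accompanies exhaustion, a state of raised inhibitory receptors and reduced effector function. CD8 T cells activated by peptide in culture divide fast and lose naive-cell genes such as Klf2. The genes examined here therefore cover cell division, p53 targets, naive and memory genes, interferon responses, chromatin and RNA-processing factors, and metabolism.

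Depth was 26748159 and 28509777 counts for the negative and 29521936 and 31240067 counts for the positive libraries. Levels are given as CPM, a gene's count per 1e6 counts of its library after TMM scaling. The 8 CD8 T cell markers that could be matched summed to 4779 to 4928 CPM without and to 4503 to 4910 CPM with TOXFL, and none was without counts. Of the 10 matched B cell markers, 6 were under 10 counts in every library, and nearly all of the list's 14.6 to 17.6 CPM came from Cd79b. Stromal and endothelial markers summed to 150.6 and 156 CPM without and to 112 and 121 CPM with TOXFL, with 7 of 11 under 10 counts in every library, and most of the sum was Pecam1, which T cells also express (137 and 143 against 95.8 and 105 CPM, log2 -0.48, blocked adjusted p = 0.0237). The part of that list in the results was not tested. The mitochondrially encoded share of counts was 0.832% and 0.834% without TOXFL, and 0.708% and 0.45% in TOXFL-positive replicates 1 and 2. TOXFL-positive replicate 2 thus stood apart from the other 3 libraries in this share. The part of this share in the results was not tested. Without that library 32 of the 464 genes called in the blocked fit described below were still called.

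Tox itself (chromosome 4, 6686353 to 6991557 on GRCm38) was read first. Its levels were 25.1 and 34.4 CPM without and 105 and 126 CPM with the construct, and the table does not separate reads of the endogenous gene from those of the vector. Both positive libraries lay above both negative ones (log2 fold change 1.96, SE 0.22, adjusted p = 0.0297 without the block). In the edgeR fit of group means over all 8 libraries, Tox was 1 of 6 genes called at an adjusted p under 0.05, which is 0.045% of those tested (0.015% higher and 0.03% lower). The tetraspanin gene Cd81 was higher (6.41 and 6.44 against 16.6 and 15.3 CPM, log2 fold change 1.31, SE 0.14, adjusted p = 0.0297). Slc28a2b, Taf15, Kmt2a and Gbp10 were lower, with adjusted p of 0.0297, 0.0399, 0.0399 and 0.0399 in that edgeR fit. Leaving out replicate 1 or 2 gave 0 or 0 calls for the TOXFL-negative group, 38 or 0 for TOXFL-positive, 1 or 1 for TOXdeltaN-negative and 122 or 120 for TOXdeltaN-positive.

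Libraries with the same replicate number deviated together in all 4 groups (correlations of 0.168 to 0.241 between groups over tested genes). A fit that takes this number as a block (the blocked fit) removed that shared deviation. What the number marks is not in the labels, so the pairing is inferred from these same data. A shared axis of variation that runs along the numbers would give the same signs. The shift between numbers was estimated from all 8 libraries, so blocked values without a TOXFL library rest in part on the TOXdeltaN libraries. The blocked fit called 464 genes, 3.48% of those tested. Of these 201 rose (1.51%) and 263 fell (1.97%), and the 6 calls above were all among them. Calls were mostly small in size, with 26 of the higher and 28 of the lower genes past 2-fold. In 195 of the 201 higher and 258 of the 263 lower genes, both positive libraries lay outside the range of the negative ones. That non-overlap was itself common, since it held for 6713 of all 13329 tested genes (50.4%), 3319 higher (24.9%) and 3394 lower (25.5%). The counts for gene lists that follow stand against these shares of all tested genes. The blocked count depended on single libraries. Leaving out replicate 1 or 2 gave 36 or 30 calls for the TOXFL-negative group, 150 or 35 for TOXFL-positive, 155 or 137 for TOXdeltaN-negative and 1772 or 1749 for TOXdeltaN-positive. Of the 464 calls, 34 or 28 were also called without replicate 1 or 2 of TOXFL-negative and 113 or 32 without those of TOXFL-positive. A set of 16 genes, 9 higher and 7 lower, was called in all 8 of these omissions, and every other blocked call was lost in at least 1. DESeq2 without the block called 314 genes (2.67%, with 1.15% higher and 1.51% lower), and limma-voom with the block 489 (3.67%, with 1.53% higher and 2.14% lower).

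**Figure D1:**
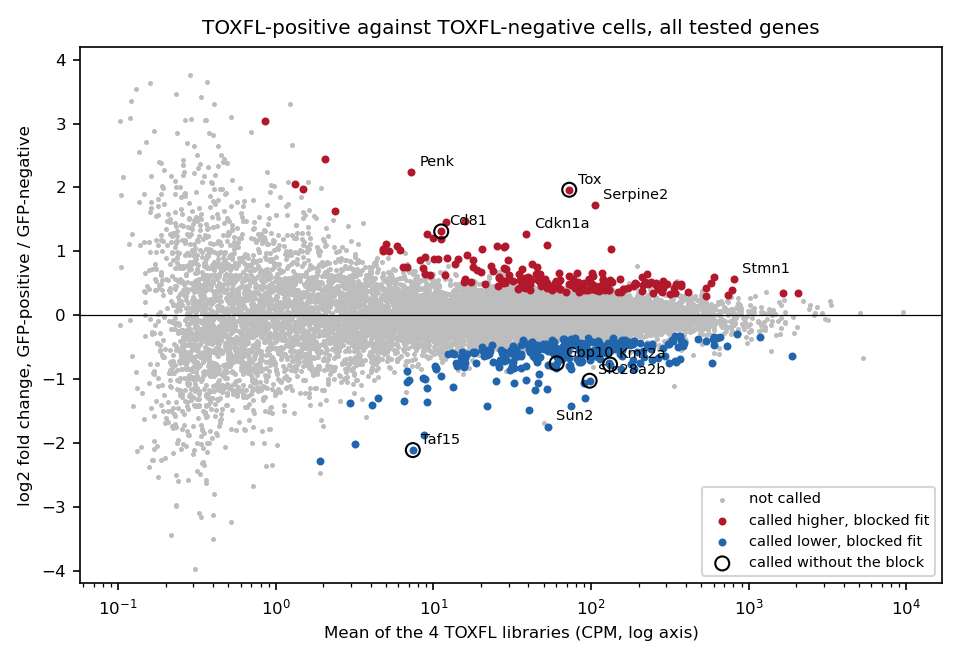
Log2 fold change of TOXFL-positive against TOXFL-negative cells in the blocked fit (vertical axis) against the mean of the 4 TOXFL libraries in CPM (horizontal log axis), 1 point per tested gene, with 47 genes outside the axes. Red and blue points are the 201 higher and 263 lower calls of the blocked fit, and black rings mark the 6 genes called without the block. Most called genes lie within 2-fold of no change.

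The 16 genes called whichever library was left out include secreted proteins, surface proteins and growth regulators. Serpine2, a secreted inhibitor of serine proteases, had 31.8 and 67.2 CPM in negative replicates 1 and 2 and 112 and 212 CPM in positive replicates 1 and 2. On the log2 scale it rose by 1.73 (SE 0.10, blocked adjusted p = 0.00017), and its adjusted p stayed at or under 0.00583 in every omission. Replicate 2 was the higher library in both groups, and the fit without the block did not call it (adjusted p = 0.164). Penk (chromosome 4, 4133531 to 4138819 on GRCm38), the precursor of enkephalin opioid peptides, went from 1.08 and 3.94 to 4.84 and 19.05 CPM. Its log2 fold change of 2.24 was the largest among these 16 genes (SE 0.19, blocked adjusted p = 0.0011), and again replicate 2 was the higher library of each group. The fit without the block did not call Penk (SE 0.94, adjusted p = 0.346), and the gap between groups was narrower than the spread within either. Over omissions of a TOXFL library the log2 fold change of Penk ran from 0.94 to 3.46 without the block. With the block it ran from 2.105 to 2.313. Ier5l (chromosome 2, 30471537 to 30474219), a relative of the immediate early gene Ier5, went from 5.74 and 11.2 to 19.3 and 26.9 CPM (log2 1.48, blocked adjusted p = 0.00495).

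Cdkn1a, which encodes the cell-cycle inhibitor p21, stood at 18.8 and 26.5 CPM without and 46.2 and 62.1 CPM with TOXFL (log2 1.26, SE 0.10, blocked adjusted p = 0.0011). Phlda3 (chromosome 1, 135766119 to 135769136), a p53-induced inhibitor of AKT signalling, stood at 13.1 and 19.4 against 28.4 and 40.4 CPM (log2 1.09, blocked adjusted p = 0.0011). For both genes the groups did not overlap. Psrc1 (chromosome 3, 108383839 to 108388231), a spindle protein, went from 16.3 and 19.7 to 32.1 and 44.3 CPM (log2 1.07, blocked adjusted p = 0.00134). The tubulin gene Tubb6 went from 27.6 and 39.3 to 59.8 and 83.2 CPM (log2 1.098, blocked adjusted p = 0.0011).

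The 7 lower genes fell in the full blocked fit and in all 8 omissions. Taf15, an RNA-binding protein of the FET family, had 13.1 and 10.9 CPM without and 3.52 and 2.1 CPM with TOXFL (log2 -2.11, SE 0.18, blocked adjusted p = 0.0011). Dhx9 (chromosome 1, 153455758 to 153487660), an RNA helicase, stood at 132 and 127 against 64.8 and 43.2 CPM (log2 -1.29, SE 0.13, blocked adjusted p = 0.00134). The positive libraries lay below the negative ones for both. Wdr82 (chromosome 9, 106170928 to 106191139), a subunit shared by SET1 histone methyltransferase and phosphatase complexes, went from 268 and 211 to 152 and 116 CPM (log2 -0.84, blocked adjusted p = 0.0011). Igfbp4 (chromosome 11, 99041244 to 99054392), a binding protein of insulin-like growth factors, went from 77.3 and 43.6 to 43.2 and 21.7 CPM (log2 -0.92, blocked adjusted p = 0.00206). TOXFL-positive replicate 1 lay just under TOXFL-negative replicate 2 for Igfbp4, and the fit without the block gave an adjusted p of 0.434.

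Ly6c2 (chromosome 15, 75108158 to 75111970), a surface antigen of memory and effector CD8 T cells, went from 135 and 109 to 71.8 and 46.5 CPM (log2 -1.07, blocked adjusted p = 0.0011). Slc28a2b, a gene of the concentrative nucleoside transporter family, went from 139 and 124 to 63.5 and 65.2 CPM (log2 -1.03, blocked adjusted p = 0.0011). Both have near-identical neighbours in the mouse genome, so the division of reads between copies is uncertain.

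**Figure D2:**
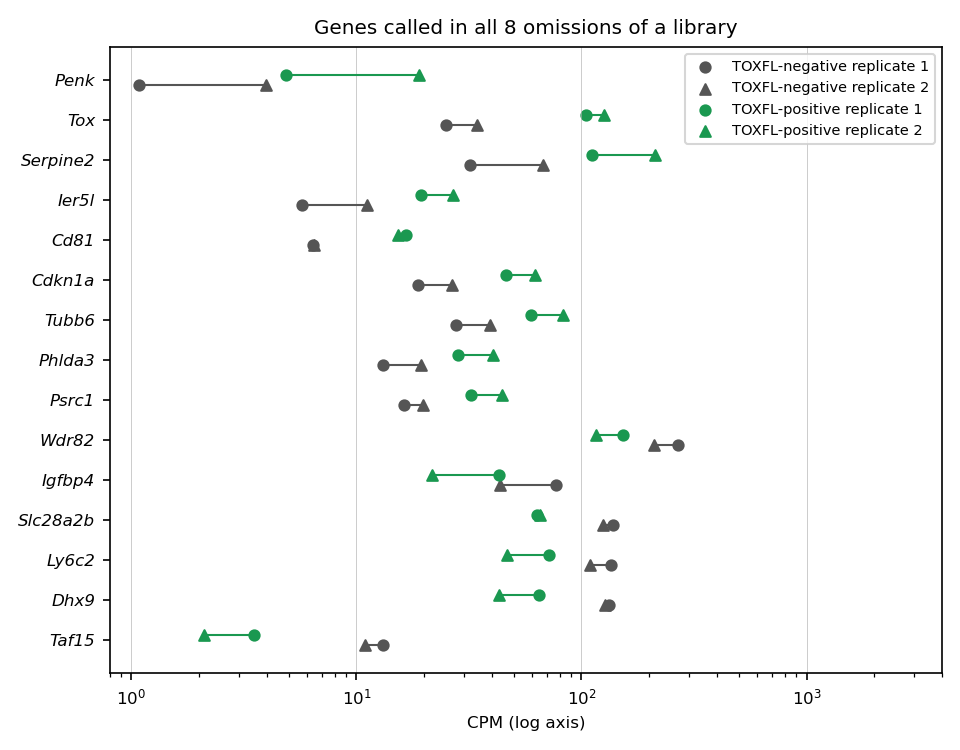
CPM on a log axis in each TOXFL library for 15 of the 16 genes called in the blocked fit and in all 8 omissions of a library. Grey marks are the TOXFL-negative and green marks the TOXFL-positive libraries, circles are replicate 1, triangles are replicate 2, and a line joins the 2 libraries of a group. The green marks lie to the right of the grey ones for 9 genes and to the left for 6, and nearly touch them for Igfbp4 only.

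Many genes of mitosis rose. Of 32 listed genes, all passed the filter on low counts, 18 were called higher in the blocked fit (1.51% of all tested genes were) and none lower. In 31 of the 32, both positive libraries lay above both negative ones, against 24.9% of all tested genes. The list's median log2 fold change was 0.48, against -0.00302 over all tested genes. None was called in the edgeR fit without the block, although 30 of the 32 had an unadjusted p under 0.05 there (1790 of all 13329 tested genes did), and DESeq2 called 19. The count of 18 fell to 0 without any of the 4 TOXFL libraries, to 6 or 3 when replicate 1 or 2 of TOXdeltaN-negative was left out, and was 30 without either TOXdeltaN-positive library.

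Cdk1, the kinase that drives entry into mitosis, had 115 and 129.6 CPM without and 184 and 179.7 CPM with TOXFL (log2 0.57, SE 0.084, blocked adjusted p = 0.00927). Ube2c and Cdc20, which load and activate the anaphase-promoting complex, stood at 149.7 and 187 against 262 and 248 CPM and at 232 and 277 against 346 and 367 CPM (log2 0.605 and 0.49, blocked adjusted p = 0.0125 and 0.0125). The groups were apart for all 3. Aurora kinases Aurka (log2 0.61) and Aurkb (log2 0.52), the cyclins Ccnb1 (log2 0.52), Ccnb2 (log2 0.35) and Ccna2 (log2 0.48), and the spindle checkpoint kinase Bub1 (log2 0.56) were also called higher in the blocked fit. So were the survivin gene Birc5 (log2 0.501), the centromeric histone gene Cenpa (log2 0.43) and the midzone protein gene Prc1 (log2 0.503). Ccnb2 and Plk1 were no longer called after the length correction described below (adjusted p = 0.0832 and 0.0698). Mki67, the common marker of cycling cells, did not differ beyond the spread (499.5 and 533 against 547 and 495 CPM, log2 0.01, blocked adjusted p = 0.975), nor did Top2a (log2 0.27, blocked adjusted p = 0.184).

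Promoters of 3 of these genes are shown because 2 short elements, the CHR element (TTTGAA) bound by the MuvB complexes and the CCAAT box (CCAAT) bound by NF-Y, are known from promoters of mitotic genes. The 3 genes were picked from the called ones for a window that holds both elements, in order of their rise. The sequences are the 250 bases before the RefSeq start in the GRCm38.p6 assembly, for Ube2c chr2:164769679-164769928 on the plus strand, for Cdk1 chr10:69352913-69353162 and for Cdc20 chr4:118437344-118437593, both on the minus strand. Each is written 5′ to 3′ along the gene, and capitals mark every match to either element on either strand, with overlapping matches run together.
Ube2c: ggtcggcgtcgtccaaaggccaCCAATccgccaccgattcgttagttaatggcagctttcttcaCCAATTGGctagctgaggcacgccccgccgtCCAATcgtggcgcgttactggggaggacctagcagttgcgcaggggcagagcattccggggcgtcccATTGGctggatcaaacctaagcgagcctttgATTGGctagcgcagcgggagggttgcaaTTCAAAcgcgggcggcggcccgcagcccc
Cdk1: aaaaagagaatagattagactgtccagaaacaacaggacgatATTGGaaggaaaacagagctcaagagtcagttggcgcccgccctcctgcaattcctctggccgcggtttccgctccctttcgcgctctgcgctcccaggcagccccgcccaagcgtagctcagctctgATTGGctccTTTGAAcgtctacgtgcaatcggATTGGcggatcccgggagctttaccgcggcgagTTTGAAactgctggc
Cdc20: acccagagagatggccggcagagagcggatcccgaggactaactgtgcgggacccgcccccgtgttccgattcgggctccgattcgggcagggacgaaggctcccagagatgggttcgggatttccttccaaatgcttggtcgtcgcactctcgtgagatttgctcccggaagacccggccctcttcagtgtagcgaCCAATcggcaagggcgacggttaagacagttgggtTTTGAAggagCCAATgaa
The Ube2c window held 6 CCAAT and 1 CHR matches, that of Cdk1 3 and 2, and that of Cdc20 2 and 1. Of the 27 mitosis genes with a promoter in the RefSeq table, 22 held a CCAAT box (81.5%) and 9 a CHR element (33.3%). The shares were 37.1% and 10.9% of the 10149 tested genes with a promoter, and 34.5% and 16.3% of all 27025 promoters. Among the blocked calls with a promoter, CCAAT stood in 50.6% of the 158 higher and 31.9% of the 204 lower genes. These matches are letters in a window and were not measured for binding.

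Genes of DNA replication followed with smaller differences. All 28 were tested, 8 were called higher in the blocked fit and none lower, 26 had non-overlapping libraries in the higher direction, and the median log2 fold change was 0.30. Rrm2, the ribonucleotide reductase subunit that makes deoxynucleotides, stood at 454 and 494 CPM without and 649 and 697 CPM with TOXFL (log2 0.51, blocked adjusted p = 0.0108). Thymidine kinase Tk1 (log2 0.48), thymidylate synthase Tyms (log2 0.41), the flap endonuclease Fen1 (log2 0.42), the clamp loader subunit Rfc5 (log2 0.42) and the helicase genes Mcm5 (log2 0.301) and Mcm10 (log2 0.51) were also among the genes called. The clamp gene Pcna was not (246 and 269 against 303 and 297 CPM, blocked adjusted p = 0.195). The count was 1 without TOXFL-positive replicate 1 and 0 without any of the other 3 TOXFL libraries, 1 without either TOXdeltaN-negative library and 21 without either TOXdeltaN-positive library.

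Several tubulin genes rose as well. Of 20 tested tubulin and microtubule genes, 7 were called higher in the blocked fit and none lower, 16 lay higher and 1 lower without overlap, and the median log2 fold change was 0.28. Besides Tubb6, Stmn1, which binds tubulin dimers and promotes microtubule disassembly, stood at 609 and 686 against 921 and 999 CPM (log2 0.57, SE 0.068, blocked adjusted p = 0.00495). The tubulin genes Tubb2a (log2 0.69), Tubb4b (log2 0.43), Tuba1a (log2 0.35), Tuba1b (log2 0.35) and the gamma-tubulin gene Tubg1 (log2 0.403) were called too. Tubulin genes resemble each other closely, and reads may be divided between them. Tubb6 alone was called whichever library was left out. The count was 1 without either TOXFL-negative library, 2 without either TOXFL-positive one, 3 without either TOXdeltaN-negative one and 9 without either TOXdeltaN-positive one.

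Some targets of p53, the factor that halts the cell cycle after DNA damage, were called. Among 24 tested, 5 were called higher in the blocked fit (20.8%, against 1.51% of all tested genes) and 1 lower (4.17%, against 1.97%). The list's median log2 fold change was 0.26, and 14 lay higher (58.3%, against 24.9%) and 3 lower (12.5%, against 25.5%) without overlap. The 5 were Cdkn1a and Phlda3 above, the membrane protein gene Perp (3.36 and 4.79 against 7.07 and 9.23 CPM, log2 1.01), the cyclin G gene Ccng1 (176 and 210.2 against 242 and 304 CPM, log2 0.498) and the sestrin gene Sesn2 (29.7 and 29.2 against 38.4 and 40.3 CPM, log2 0.41). Rrm2b, the p53-inducible ribonucleotide reductase subunit, was the 1 called lower (23.3 and 18.98 against 15.9 and 12.6 CPM, log2 -0.57, blocked adjusted p = 0.0267). Mdm2, the ubiquitin ligase that restrains p53, was not called (97.3 and 105 against 109.5 and 124 CPM, blocked adjusted p = 0.217), nor was Bax (174 and 176 against 208 and 223 CPM, blocked adjusted p = 0.132). The count called higher was 2 or 3 without any 1 of the TOXFL or TOXdeltaN-negative libraries and 12 without either TOXdeltaN-positive library. Rrm2b was not called when any 1 of the 4 TOXFL libraries was left out (adjusted p = 0.201, 0.196, 0.131 and 0.163).

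Of 17 tested G1 regulators, Cdkn1a and the p18 gene Cdkn2c (58.9 and 65.9 against 89.4 and 94.997 CPM, log2 0.56, blocked adjusted p = 0.0233), both inhibitors of cyclin-dependent kinases, were called higher. The G1 kinase gene Cdk6 was called lower (235 and 191 against 184 and 139.5 CPM, log2 -0.401, blocked adjusted p = 0.0494), a call lost after the length correction (adjusted p = 0.273). Neither Cdkn2c nor Cdk6 was called when any 1 of the 4 TOXFL libraries was left out (adjusted p of 0.0835 to 0.261 and of 0.112 to 0.324). In the BCL2 family of cell death regulators, 3 of 16 tested genes were called lower in the blocked fit and none higher. That was 18.8%, against 1.97% of all tested genes. The list's median log2 fold change was 0.21, and 5 members lay higher and 5 lower without overlap. These shares were 31.2% each, against 24.9% and 25.5% of all tested genes. All 3 genes called lower promote death. They were the effector gene Bak1 (6.23 and 6.27 against 3.69 and 1.57 CPM, log2 -1.303), and the BH3-only genes Bmf (8.5 and 10.2 against 5.14 and 2.29 CPM, log2 -1.35) and Bcl2l11, which encodes BIM (380.4 and 362 against 300.3 and 267 CPM, log2 -0.39). TOXFL-positive replicate 2 was the lowest library for all 3. Without it none of the 3 was called, with log2 fold changes of -0.81 for Bak1 and -0.75 for Bmf. The count was 2 without TOXFL-positive replicate 1, 4 without either TOXdeltaN-positive library and 0 in the other omissions. The survival genes Bcl2 (895 and 662 against 675 and 627 CPM, blocked adjusted p = 0.157) and Mcl1 (blocked adjusted p = 0.439) were not called.

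Among secreted and surface proteins, 3 members of the TNF ligand and receptor families rose in the blocked fit. Tnfsf4, which encodes OX40 ligand, stood at 4.1 and 6.44 against 9.58 and 16.01 CPM (log2 1.27, SE 0.19, blocked adjusted p = 0.0112), 1 of 13 tested ligands. Its receptor OX40, from Tnfrsf4, stood at 39.1 and 56.5 against 58.9 and 94.6 CPM (log2 0.67, blocked adjusted p = 0.0119), and Tnfrsf9, which encodes 4-1BB, at 192 and 277 against 284 and 394 CPM (log2 0.54, blocked adjusted p = 0.0119). Those were 2 of 12 tested costimulators. In all 3 genes the groups were apart by little, and replicate 2 was the higher library of each group. None of them was called when either TOXFL-negative library, or replicate 2 of TOXFL-positive, was left out. Tnfrsf4 and Tnfrsf9 were not called without TOXFL-positive replicate 1 either, nor was Tnfrsf9 without either TOXdeltaN-negative library.

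Of 14 tested cytokines and chemokines, 3 were called higher in the blocked fit (21.4%, against 1.51% of all tested genes) and none lower. Ccl3, a chemokine for inflammatory cells, stood at 15.96 and 14.7 against 27.1 and 21.9 CPM (log2 0.68). Xcl1, the chemokine that attracts cross-presenting dendritic cells, stood at 156 and 199 against 265 and 280.0 CPM (log2 0.64). Spp1, which encodes osteopontin, stood at 2.8 and 4.72 against 6.12 and 9.76 CPM (log2 1.08, blocked adjusted p = 0.0137). The thyroglobulin gene Tg, a gene of the thyroid, was listed with 4.7 and 8.87 CPM in the negative and 10.3 and 20.96 CPM in the positive libraries (log2 1.197, blocked adjusted p = 0.00801). Asb2, a substrate receptor of a ubiquitin ligase, went from 4.88 and 7.92 to 12.96 and 22.3 CPM (log2 1.45, blocked adjusted p = 0.00538). The carbonic anhydrase gene Car2 went from 5.85 and 6.13 to 12.6 and 15.3 CPM (log2 1.21, blocked adjusted p = 0.00534). Groups did not overlap for these genes, but for Tg and Spp1 the gap between groups was narrower than the spread within either. Without TOXFL-positive replicate 2 the adjusted p was 0.0522 for Tg, 0.0582 for Asb2 and 0.0535 for Car2. These 3 genes were not called without TOXFL-negative replicate 2 either (0.124, 0.0842 and 0.0875), nor was Asb2 without TOXFL-negative replicate 1 (0.0596). The cytokine count was 1 without TOXFL-positive replicate 2 or either TOXdeltaN-negative library, 0 without any other TOXFL library, and 4 or 3 when replicate 1 or 2 of TOXdeltaN-positive was left out.

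Myeloid markers did not all move with these rises. The summed level of 18 myeloid and dendritic cell markers was 19.8 and 26.9 CPM in the negative and 26.02 and 43.1 CPM in the positive libraries. The groups overlapped in this sum. Of the 6 markers tested, 4 had positive and 2 negative log2 fold changes (-0.63 to 0.95 without the block). Only 1 lay higher without overlap, and none lay lower. Of the 18, 11 were under 10 counts in every library and 4 of those had no count. Cd74, the invariant chain of MHC class II, made much of the sum (4.92 and 11.7 against 8.26 and 23.9 CPM), overlapped between groups and was called in the blocked fit (log2 0.902, adjusted p = 0.0112). It was not called without TOXFL-positive replicate 2 or either TOXFL-negative library (adjusted p = 0.122, 0.0782 and 0.148). Whether cells of that kind contributed to Spp1, Irf5 or Irf8 was not tested. In bulk RNA, more cells of a type and more RNA per cell, or fewer cells and less RNA per cell, cannot be told apart.

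Several transcription regulators were called. Irf2bp2, a corepressor that partners IRF2, stood at 71.2 and 103 CPM without and 154 and 203 CPM with TOXFL (log2 1.04, SE 0.18, blocked adjusted p = 0.0146). Samd1, a protein that binds unmethylated CpG islands, stood at 10.4 and 16.3 against 26.6 and 27.5 CPM (log2 1.04, SE 0.16, blocked adjusted p = 0.0113). Both positive libraries were above both negative ones for each. The interferon regulatory factor genes Irf5 (9.1 and 13.1 against 16.8 and 26.2 CPM, log2 0.94) and Irf8 (81.2 and 116 against 119 and 156 CPM, log2 0.49) were called, as was Bhlhe40, a helix-loop-helix repressor (54.8 and 71.4 against 85.7 and 113 CPM, log2 0.66, blocked adjusted p = 0.00607). Jdp2, an AP-1 repressor, went from 5.93 and 6.41 to 11.3 and 11.8 CPM (log2 0.91, blocked adjusted p = 0.019). The orphan nuclear receptor gene Nr4a3 went the other way, from 9.51 and 15.6 to 5.45 and 5.65 CPM (log2 -1.14, blocked adjusted p = 0.0119), while its relatives Nr4a1 and Nr4a2 had values of 0.23 and 0.35 (blocked adjusted p = 0.279 and 0.063). Without TOXFL-positive replicate 2 none of the 7 called genes named here passed (adjusted p of 0.0619 for Samd1 to 0.147 for Irf2bp2), nor did any without TOXFL-negative replicate 1 (0.0596 for Nr4a3 to 0.189 for Irf8). Samd1 alone passed without TOXFL-negative replicate 2 (adjusted p = 0.0254), and Irf2bp2, Bhlhe40 and Nr4a3 without TOXFL-positive replicate 1 (0.0353, 0.0239 and 0.0148). In all, 2 of 30 tested TCR-induced transcription factors were called higher and 1 lower, and these counts were 0 without either TOXFL-negative library or TOXFL-positive replicate 2.

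Genes of naive and memory T cells gave lower calls only. Of 20 tested, 8 were called lower in the blocked fit (40.0%, against 1.97% of all tested genes) and none higher, 15 lay lower without overlap and none higher, and the median log2 fold change was -0.26. Besides Igfbp4 these included S1pr1, the receptor for exit from lymphoid organs (397 and 321 against 256 and 204 CPM, log2 -0.64, blocked adjusted p = 0.00801), and its regulator Klf2 (484 and 412 against 370.3 and 294 CPM, log2 -0.44, blocked adjusted p = 0.0137). Klf3, a repressor of the same family, stood at 200.5 and 168 against 136 and 106 CPM (log2 -0.61). Dapl1, a marker of naive and stem-like CD8 T cells, stood at 71.5 and 115 against 45.4 and 62.2 CPM (log2 -0.77, blocked adjusted p = 0.00801). The interleukin-6 receptor gene Il6ra stood at 48.99 and 34.1 against 28.1 and 18.8 CPM (log2 -0.83), and the chromatin organiser gene Satb1 at 374 and 444 against 297 and 356 CPM (log2 -0.32, adjusted p = 0.419 after the length correction). In each of these 6 genes the positive libraries lay below the negative ones.

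Other genes of the list had smaller values and were not called. Tcf7 had a log2 fold change of -0.201 (blocked adjusted p = 0.256), Lef1 of -0.28 (blocked adjusted p = 0.0823) and Ccr7 of -0.24 (blocked adjusted p = 0.103), and Il7r had -0.05 (blocked adjusted p = 0.802). Leaving out replicate 1 or 2 gave 3 or 2 lower calls for TOXFL-negative and 4 or 2 for TOXFL-positive, and the count was 6 without either TOXdeltaN-negative library and 14 without either TOXdeltaN-positive library. Other surface genes that fell in the blocked fit were the interleukin-18 receptor gene Il18r1 (39.3 and 41.7 against 25.01 and 26.4 CPM, log2 -0.66), the activating receptor gene Cd226 (45.8 and 37.9 against 31.2 and 23.7 CPM, log2 -0.61) and the neuropeptide receptor gene Vipr1 (13.5 and 12.7 against 4.26 and 5.87 CPM, log2 -1.37). St6gal1, a sialyltransferase, fell as well (35.01 and 44.3 against 18.04 and 25.8 CPM, log2 -0.86). Without TOXFL-positive replicate 2 both Vipr1 and St6gal1 were called (adjusted p = 0.0241 and 0.038), and neither was without a TOXFL-negative library (0.0865 and 0.0949 for Vipr1, 0.0782 and 0.125 for St6gal1). St6gal1 was not called without TOXFL-positive replicate 1 (0.0726). Cd8b1, a chain of the CD8 coreceptor, was lower by a smaller amount (742 and 667 against 614 and 493 CPM, log2 -0.35, blocked adjusted p = 0.0345), and the adhesion receptor gene Cd44 was higher (55.99 and 64.8 against 72.95 and 82.2 CPM, log2 0.36, blocked adjusted p = 0.0457). Il18r1, Cd226, Cd8b1 and Cd44 were not called when any 1 of the 4 TOXFL libraries was left out, with 0.0501 for Cd226 as their lowest adjusted p there.

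Guanylate-binding proteins are GTPases that interferon-gamma induces and that attack intracellular microbes. Of 9 tested, 7 were called lower in the blocked fit and none higher, 8 lay lower without overlap, and the median log2 fold change was -0.51. Gbp10 had 77.2 and 74.7 CPM without and 44.3 and 45.7 CPM with TOXFL (log2 -0.75, SE 0.089, blocked adjusted p = 0.00495). Gbp5 stood at 68.2 and 69.2 against 44.1 and 46.6 CPM (log2 -0.599), Gbp2 at 356 and 318 against 261 and 212 CPM (log2 -0.52), and Gbp7 at 251 and 218 against 189.8 and 157 CPM (log2 -0.44). The positive libraries were below the negative ones in each. Gbp6, Gbp8 and Gbp9 were called with log2 fold changes of -0.51, -0.44 and -0.69, while Gbp3 (-0.22, adjusted p = 0.156) and Gbp4 (-0.41, adjusted p = 0.0781) were not. These genes are close copies on 2 clusters, so the division of reads between them is uncertain. The count was 0 without either TOXFL-negative library, 1 or 2 when replicate 1 or 2 of TOXFL-positive was left out, 3 or 2 for those of TOXdeltaN-negative, and 9 without either TOXdeltaN-positive library.

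Promoters of 3 Gbp genes are shown because they hold the interferon-stimulated response element, to which interferon regulatory factors are known to bind. The windows are chr3:142496684-142496933 for Gbp5, chr3:142620413-142620662 for Gbp2 and chr3:142530086-142530335 for Gbp7 in GRCm38.p6, all on the plus strand, and capitals mark a match on either strand to the searched letters, GAAA, any 2 bases and GAAA.
Gbp5: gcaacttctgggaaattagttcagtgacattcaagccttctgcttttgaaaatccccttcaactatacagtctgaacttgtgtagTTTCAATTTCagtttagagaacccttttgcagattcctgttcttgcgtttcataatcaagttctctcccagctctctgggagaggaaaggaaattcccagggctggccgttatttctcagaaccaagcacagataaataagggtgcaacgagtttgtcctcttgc
Gbp2: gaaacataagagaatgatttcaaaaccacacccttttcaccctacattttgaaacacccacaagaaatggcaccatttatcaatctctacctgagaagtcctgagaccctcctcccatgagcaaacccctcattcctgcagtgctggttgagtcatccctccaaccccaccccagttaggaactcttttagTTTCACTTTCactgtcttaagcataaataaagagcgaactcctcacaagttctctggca
Gbp7: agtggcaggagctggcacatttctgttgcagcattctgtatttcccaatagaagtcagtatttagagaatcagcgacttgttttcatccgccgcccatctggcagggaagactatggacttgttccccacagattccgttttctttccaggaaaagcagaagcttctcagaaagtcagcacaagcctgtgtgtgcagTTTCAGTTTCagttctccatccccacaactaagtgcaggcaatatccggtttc
Each window held 1 match, written here as its reverse complement. All 4 Gbp promoters in the RefSeq table held it (100%), as did 12 of 23 promoters of the wider interferon-stimulated list (52.2%), against 2.76% of the promoters of tested genes and 3.04% of all promoters. It stood in 7.84% of the promoters of blocked lower calls and 2.53% of those of higher calls.

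In that wider list of 31 tested interferon-stimulated genes, 8 were called lower in the blocked fit and none higher, 24 lay lower and 1 higher without overlap, and the median log2 fold change was -0.42. Samhd1, a dNTP hydrolase that restricts viruses, stood at 765 and 638 against 517 and 489.5 CPM (log2 -0.47, blocked adjusted p = 0.0116). The DNA sensor family genes Ifi209 (168 and 146 against 110.3 and 104 CPM, log2 -0.55), Ifi206 (log2 -0.74), Ifi213 (log2 -0.64) and Ifi203 (log2 -0.43) were called, and these too are close copies. Dtx3l, a ubiquitin ligase (log2 -0.43), and the surface antigen gene Ly6a, which encodes SCA-1 (log2 -0.43), were called with Ly6c2 above. The antiviral genes Ifit1 (log2 -0.72, blocked adjusted p = 0.0768) and Irf7 (log2 -0.32, blocked adjusted p = 0.117) were not called. Bst2 was the 1 gene higher without overlap (50.5 and 49.5 against 59.4 and 51.3 CPM, blocked adjusted p = 0.558). Rnf213, a giant ubiquitin ligase outside the list, was called (110.1 and 80.7 against 61.4 and 45.2 CPM, log2 -0.84, blocked adjusted p = 0.00495). It was not called without TOXFL-positive replicate 2 or TOXFL-negative replicate 1 (adjusted p = 0.0601 and 0.073). The list's count was 1 to 3 without any 1 of the TOXFL or TOXdeltaN-negative libraries and 18 without either TOXdeltaN-positive library.

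Some chromatin and RNA-processing genes were called lower. Of 27 tested histone lysine methyltransferases, 5 were called lower in the blocked fit (18.5%, against 1.97% of all tested genes) and none higher. Without overlap 17 lay lower (63%, against 25.5%) and 7 higher (25.9%, against 24.9%). The median log2 fold change was -0.20, and -0.0917 after the length correction described below, under which all 5 were still called. Kmt2a, a writer of histone H3 lysine 4 methylation, had 176 and 157 CPM without and 98.2 and 96.4 CPM with TOXFL (log2 -0.77, SE 0.085, blocked adjusted p = 0.00314), and its highest adjusted p over the omissions was 0.0596, without TOXFL-negative replicate 1. Its relatives Kmt2d (219 and 178 against 128 and 94.9 CPM, log2 -0.84) and Kmt2c (182 and 129 against 109 and 95.6 CPM, log2 -0.59), and Ash1l (80.9 and 69.7 against 49.3 and 49.5 CPM, log2 -0.61) fell in the same way, with the groups apart. Ehmt2, which encodes the H3 lysine 9 methyltransferase G9a, stood at 136 and 139.7 against 92.4 and 100.2 CPM (log2 -0.52, blocked adjusted p = 0.0116). Tet3, which oxidises methylated cytosine, stood at 102 and 80.7 against 62.2 and 43.5 CPM (log2 -0.802, blocked adjusted p = 0.00725). Of 25 tested DNA methylation and Polycomb genes, Tet3 was the 1 called lower, and 1 other was called higher. In that list 12 lay higher (48%) and 7 lower (28%) without overlap, and the median log2 fold change was 0.048. Among 24 chromatin remodelling genes 4 were called lower, Chd3 (112 and 104 against 74.1 and 55.7 CPM, log2 -0.74), Chd2, Arid1a and Bptf, and 1 higher, the lymphoid-specific helicase gene Hells (log2 0.39, blocked adjusted p = 0.0311). The median of the remodelling genes was -0.24, and -0.0869 after the length correction, under which Chd3 and Hells were still called and the other 3 were not. Without TOXFL-positive replicate 2 the adjusted p was 0.0619 for Kmt2d and 0.0758 for Tet3, and without TOXFL-negative replicate 1 or 2 it was 0.0819 or 0.055 for Kmt2d and 0.0865 or 0.0846 for Tet3. Leaving out replicate 1 or 2 gave 0 or 1 methyltransferase calls for TOXFL-negative, 3 or 1 for TOXFL-positive, 5 for TOXdeltaN-negative and 10 for TOXdeltaN-positive. The remodelling genes called lower numbered 2 without TOXFL-positive replicate 1, 0 without any other TOXFL library, 1 without either TOXdeltaN-negative library and 12 without either TOXdeltaN-positive one.

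Of 23 tested FET proteins and RNA helicases, 4 were called lower and none higher in the blocked fit. With Taf15 and Dhx9 these were Ddx17 (73.7 and 69.6 against 42.5 and 23.3 CPM, log2 -1.15, blocked adjusted p = 0.0112) and Ddx6, a helicase of mRNA decay (119 and 115 against 96.9 and 79.4 CPM, log2 -0.42, blocked adjusted p = 0.031). The list's median log2 fold change was -0.12, and 14 of its members lay lower and 3 higher without overlap. The count was 2 without either TOXFL-negative library, 3 without a TOXFL-positive or TOXdeltaN-negative one and 8 without either TOXdeltaN-positive one. Ewsr1, of the same family as Taf15, was not called (log2 0.05, blocked adjusted p = 0.765), nor was Ddx5, the closest relative of Ddx17 (log2 -0.31, blocked adjusted p = 0.0662). The splicing scaffold genes Srrm2, Son and Luc7l2 were called lower (log2 -0.37, -0.45 and -0.53) among 26 tested SR proteins and CLK kinases, and at most 1 was in any omission but those of the TOXdeltaN-positive libraries (7). None of the 3 was called after the length correction, which moved that list's median log2 fold change from -0.16 to -0.0791.

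A set of falls was larger in TOXFL-positive replicate 2 than in replicate 1. Sun2, a nuclear envelope protein that ties the nucleus to the cytoskeleton, had 81.01 and 78.99 CPM without TOXFL and 37.4 and 15.03 CPM in positive replicates 1 and 2 (log2 -1.75, SE 0.23, blocked adjusted p = 0.00725). Stk11, which encodes the kinase LKB1 upstream of AMPK, stood at 54.3 and 64.3 against 28.2 and 15.3 CPM (log2 -1.49, blocked adjusted p = 0.00801). Max, the obligate partner of MYC, stood at 109 and 106 against 56.5 and 27.5 CPM (log2 -1.41, blocked adjusted p = 0.00725). In all 3 genes both positive libraries lay below both negative ones, and replicate 2 lay below replicate 1. Emd, which encodes the nuclear envelope protein emerin (58.5 and 62.97 against 36.1 and 19.1 CPM), and the nucleolar chaperone gene Npm3 (30.4 and 32.3 against 17.7 and 6.68 CPM) had the same order. Without TOXFL-positive replicate 2, Max and Stk11 were still called with log2 fold changes of -1.03 and -1.09 (adjusted p = 0.0254 and 0.0457). Sun2 then stood at -1.38, Emd at -0.77 and Npm3 at -0.83, and these 3 were not called (adjusted p = 0.0591, 0.0619 and 0.0604). Without TOXFL-negative replicate 2, Stk11, Max, Emd and Npm3 were not called (adjusted p = 0.0842, 0.0842, 0.144 and 0.197), and Emd and Npm3 were not without TOXFL-negative replicate 1 (0.0553 and 0.0954). Myc itself was not called (543 and 536 against 486 and 490.3 CPM, log2 -0.14, blocked adjusted p = 0.338).

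Genes called lower were longer than genes called higher. The median length of the union of exons was 7137 bases for the 263 lower calls, 3400 bases for the 201 higher calls and 4180 bases for all tested genes. Tested genes were divided into 4 equal classes by this length. In the longest class (6493 bases or more), 140 were called lower and 28 higher, and in the shortest class (2532 bases or less) 30 were called lower and 66 higher. The median log2 fold change went from 0.0473 in the shortest to -0.079 in the longest class. When a length trend was removed from each library in the blocked fit, 560 genes were called, 284 higher and 276 lower, and 395 of the 464 blocked calls were among them. The calls lost were 10 higher and 59 lower, including Srrm2, Son, Luc7l2, Arid1a, Chd2, Bptf and the nuclear envelope gene Syne1 (adjusted p = 0.139, 0.152, 0.0816, 0.0562, 0.0761, 0.153 and 0.0708). Kmt2a, Kmt2c, Kmt2d, Ash1l, Tet3, Taf15 and Dhx9 were still called (adjusted p = 0.00972, 0.0423, 0.0148, 0.0432, 0.012, 0.000372 and 0.000811). With this correction the lower calls were spread over the classes as 57, 68, 69 and 82 genes from shortest to longest.

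**Figure D3:**
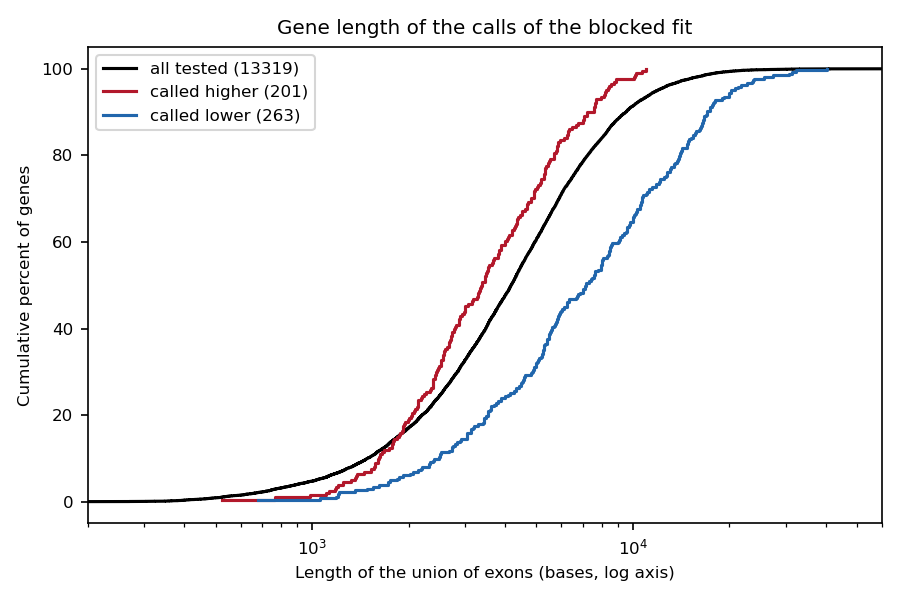
Cumulative percent of genes (vertical axis) by the length of the union of their exons (horizontal log axis, bases) for all tested genes with a length, the 201 genes called higher and the 263 called lower in the blocked fit. The blue line of the lower calls lies to the right of the black line of all tested genes, with medians of 7137 and 4180 bases, and the red line of the higher calls mostly to its left.

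Among the 5 metabolic and housekeeping lists of this paragraph, 1 gene was called in the blocked fit. Other such lists had 2 of 29 called higher (glycolysis and hypoxia response), 3 of 19 (amino acid response) and 1 of 14 (amino acid transporters). In ribosome biogenesis 1 of 30 was called lower. All 13 protein-coding genes of the mitochondrial genome lay lower without overlap, with a median log2 fold change of -0.51, and mt-Co1, a catalytic subunit of cytochrome c oxidase, was the 1 called in the blocked fit (2239.9 and 2344 against 1808 and 1159 CPM, log2 -0.64, adjusted p = 0.0441). TOXFL-positive replicate 2 carried most of this difference. Without it mt-Co1 had a log2 fold change of -0.32 and no gene of the list was called, and without TOXFL-positive replicate 1 it had -1.002 and 11 of the 13 were. Without the block edgeR called none, with 10 of the 13 at an unadjusted p under 0.05, and DESeq2 called 4. Nuclear genes for respiratory chain subunits had a median of 0.0923, and 15 of 29 lay higher without overlap but none was called by edgeR or DESeq2 (6 had an unadjusted p under 0.05 in the blocked fit). Proteasome subunits had a median of 0.11 with 23 of 30 higher without overlap, and none was called by either tool (2 had an unadjusted p under 0.05 in the blocked edgeR fit). Cytosolic ribosomal protein genes had a median of -0.11 with 5 of 30 lower without overlap (16.7%, under the 25.5% of all tested genes), and none was called by either tool or had an unadjusted p under 0.05 (0 of 30). Of 28 cholesterol and fatty acid synthesis genes, none was called by edgeR or DESeq2 (12 had an unadjusted p under 0.05 in the blocked fit). In that list 15 lay higher and 3 lower without overlap, and the median was 0.19. For these last 4 lists the calls are those with all 8 libraries, and those of DESeq2 are without the block. Without either TOXdeltaN-positive library the blocked fit called some genes of the respiratory chain, proteasome and cholesterol lists.

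Genes of the amino acid response gave 3 blocked calls among 19 tested, all higher. Asparagine synthetase Asns stood at 12.6 and 15.8 against 19.7 and 27.02 CPM (log2 0.71, blocked adjusted p = 0.0145), the serine synthesis enzyme Psat1 at 123 and 139 against 161 and 174 CPM (log2 0.36, blocked adjusted p = 0.0399), and Sesn2 was given above. The count was 0 without any of the 4 TOXFL libraries and 5 without either TOXdeltaN-positive one. The monocarboxylate exporter gene Slc16a3 was called (40.1 and 58.1 against 52.4 and 76.8 CPM, log2 0.39) although its libraries overlapped, and it was not called when any 1 of the 4 TOXFL libraries was left out (adjusted p = 0.246, 0.292, 0.188 and 0.181). The lactate dehydrogenase gene Ldha was not called (log2 0.23, blocked adjusted p = 0.119).

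**Figure D4:**
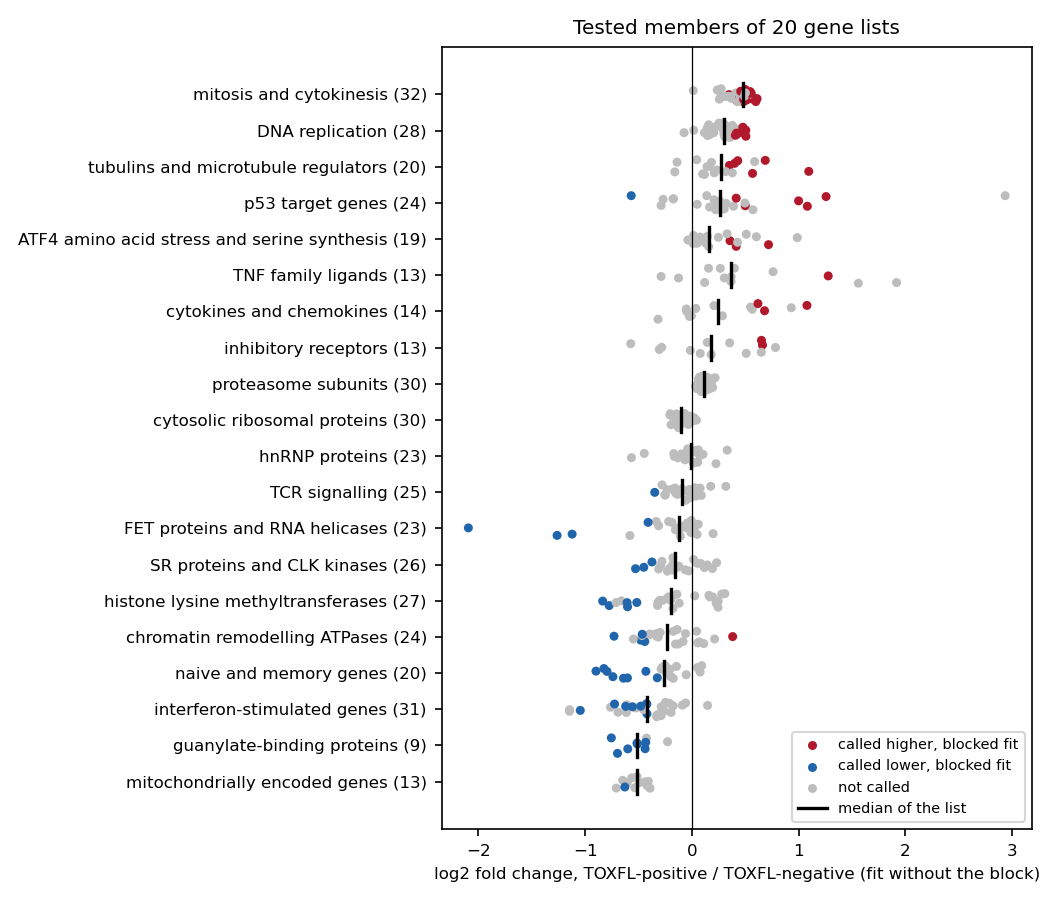
Log2 fold change of TOXFL-positive against TOXFL-negative cells in the fit without the block (horizontal axis) for the tested members of 20 gene lists, with the number tested in parentheses; vertical scatter within a list has no meaning. Red and blue points were called higher and lower in the blocked fit, grey points were not called, and a black bar is the list's median, which runs from 0.48 for mitosis to -0.51 for guanylate-binding and mitochondrially encoded genes.

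Further genes among the 30 largest rises and 30 largest falls belonged to none of the groups above. The phosphatase gene Dusp4, which shuts off MAP kinases, went from 7.68 and 12.5 to 14.9 and 19.9 CPM (log2 0.81, blocked adjusted p = 0.0302). Fads2, a desaturase of polyunsaturated fatty acids, went from 5.82 and 4.19 to 9.95 and 7.03 CPM (log2 0.76), and Crat, carnitine acetyltransferase, from 5.44 and 6.2 to 8.93 and 12.4 CPM (log2 0.86). Mt1, a metallothionein that binds zinc, went from 4.81 and 4.68 to 7.55 and 8.57 CPM (log2 0.76, blocked adjusted p = 0.039). Among the falls, Foxo3, a forkhead factor of quiescence and survival, went from 10.3 and 13.1 to 6.02 and 5.62 CPM (log2 -1.01, blocked adjusted p = 0.0153). Rps6ka3, which encodes the ERK-activated kinase RSK2, went from 51.6 and 51.2 to 33.4 and 18.8 CPM (log2 -1.02), and Rab5c, a GTPase of early endosomes, from 33.8 and 32.3 to 22.1 and 11.5 CPM (log2 -1.04). Pip4k2b, a phosphoinositide kinase, went from 8.35 and 9.19 to 4.8 and 4.8 CPM (log2 -0.87, blocked adjusted p = 0.0237). By the naming rule the libraries of these 8 genes do not overlap between groups. Without TOXFL-positive replicate 2 none of the 8 was called (adjusted p of 0.0919 for Rps6ka3 to 0.227 for Mt1), and Rps6ka3 and Rab5c then had log2 fold changes of -0.69 and -0.74. None was called without TOXFL-negative replicate 2 (0.147 for Rps6ka3 to 0.278 for Mt1). Rab5c alone was called without TOXFL-negative replicate 1 (0.0422), and Rab5c and Rps6ka3 without TOXFL-positive replicate 1 (0.0124 and 0.00387).

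Inhibitory receptors and effector molecules are the best known genes of exhaustion. Of 13 tested inhibitory receptors 2 were called higher in the blocked fit (15.4%, against 1.51% of all tested genes) and none lower. They were Pdcd1, which encodes PD-1 (65.4 and 91.6 against 102 and 146 CPM), and Cd160 (84.8 and 97.3 against 136 and 151 CPM), with log2 fold changes of 0.66 and 0.65. Of the 13, 9 had positive and 4 negative values, with a median of 0.18 and -0.57 as the lowest. Without overlap 4 lay higher (30.8%, against 24.9% of all tested genes) and 3 lower (23.1%, against 25.5%). Lag3 (37.1 and 50.6 against 41.4 and 51.2 CPM), Tigit (19.7 and 28.1 against 26.97 and 34.2 CPM) and Ctla4 (109 and 123 against 105 and 124 CPM) were not called (blocked adjusted p = 0.683, 0.113 and 0.942). The count was 0 without either TOXFL-negative library, 1 without TOXFL-positive replicate 2 and 2 or 3 in the other omissions. Havcr2, which encodes TIM-3, was at the limit of detection with 0.0746 and 0.423 against 0.372 and 0.345 CPM. Of 15 tested granule genes, only Rab27a, which docks granules at the membrane, was called (36.8 and 40.4 against 52.9 and 60.7 CPM, log2 0.55, blocked adjusted p = 0.0154), a call lost in every omission but those of the TOXdeltaN-positive libraries.

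The difference of the TOXFL and TOXdeltaN effects was tested to see which of these changes differ between the constructs. No gene was called in this interaction with or without the block (0%), while 318 and 494 of 13329 genes had an unadjusted p under 0.05, limma-voom called 0 and DESeq2 called 7. Of the 201 genes higher with TOXFL, 199 also had a positive value with TOXdeltaN and 75 were called there in either direction. Of the 263 lower genes, 256 had a negative value with TOXdeltaN and 73 were called in either direction. Among all tested genes the blocked fit called 1.65% with TOXdeltaN (220 calls, with 0.773% higher and 0.878% lower). Without the block TOXdeltaN gave 4 calls (0.03%, with 0.0075% higher and 0.0225% lower). Over all tested genes 9318 of 13329 had the same sign with both constructs. The comparisons use separate libraries but share each gene's estimate of spread. The median effects of the called genes were 0.515 and -0.582 with TOXFL, by which they were chosen, and 0.409 and -0.352 with TOXdeltaN.

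Some genes had unlike values with the constructs. Taf15 had 10.5 and 8.59 CPM without and 10.4 and 8.43 CPM with TOXdeltaN, a log2 fold change of -0.02 beside -2.11 with TOXFL. The blocked difference was -2.09 (SE 0.25, adjusted p = 0.0989), while DESeq2 gave -2.07 (SE 0.393, adjusted p = 9.17e-04). Irf2bp2 had 157 and 155 CPM in TOXdeltaN-negative and 170.0 and 131 CPM in TOXdeltaN-positive cells (log2 -0.05 beside 1.04), with a blocked difference of 1.08 (SE 0.25, adjusted p = 0.989) and a DESeq2 difference of 1.09 (SE 0.253, adjusted p = 0.0382). Samd1 had 23.9 and 28.4 against 27.7 and 26.2 CPM there, a log2 fold change of 0.05, and a difference of 0.98 (SE 0.22, blocked adjusted p = 0.989). For both genes the TOXdeltaN-negative cells had levels near those of the TOXFL-positive cells, and the TOXFL-negative cells had the lowest levels of the 4 groups. Penk was called with both (log2 2.24 and 1.02), and its difference of 1.22 did not pass (SE 0.26, blocked adjusted p = 0.989). Npm3 (34.2 and 34.5 against 34.3 and 30.7 CPM) and Stk11 (62.2 and 59.2 against 54.6 and 44.7 CPM) had log2 fold changes of -0.09 and -0.297 with TOXdeltaN and differences of -1.34 (SE 0.39, blocked adjusted p = 0.989) and -1.19 (SE 0.28, blocked adjusted p = 0.989). The 5 largest positive and 5 largest negative blocked differences that passed the naming filters also took in the corepressor gene Ski (1.08), the TFIID subunit gene Taf4 (0.95), BC005537 (-1.104) and the noncoding RNA gene Xist (-1.31), none of them called (adjusted p = 0.989, 0.989, 0.989 and 0.989). Leaving out TOXdeltaN-positive replicate 1 gave 449 blocked calls of the difference, TOXFL-positive replicate 1 gave 18, and TOXdeltaN-positive replicate 2 gave 4.

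Other changes had like values. Cdkn1a rose by 1.26 with TOXFL and 1.27 with TOXdeltaN, Tubb6 by 1.098 and 1.15, Gbp10 fell to log2 values of -0.75 and -0.82, and Slc28a2b to -1.03 and -0.998, all of them called with both constructs in the blocked fit. Among the mitosis genes 25 of 32 lay higher without overlap with TOXdeltaN, where 21.1% of all tested genes did (42% in either direction), and 8 of 9 guanylate-binding protein genes lay lower (20.8% of all tested genes).

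**Figure D5:**
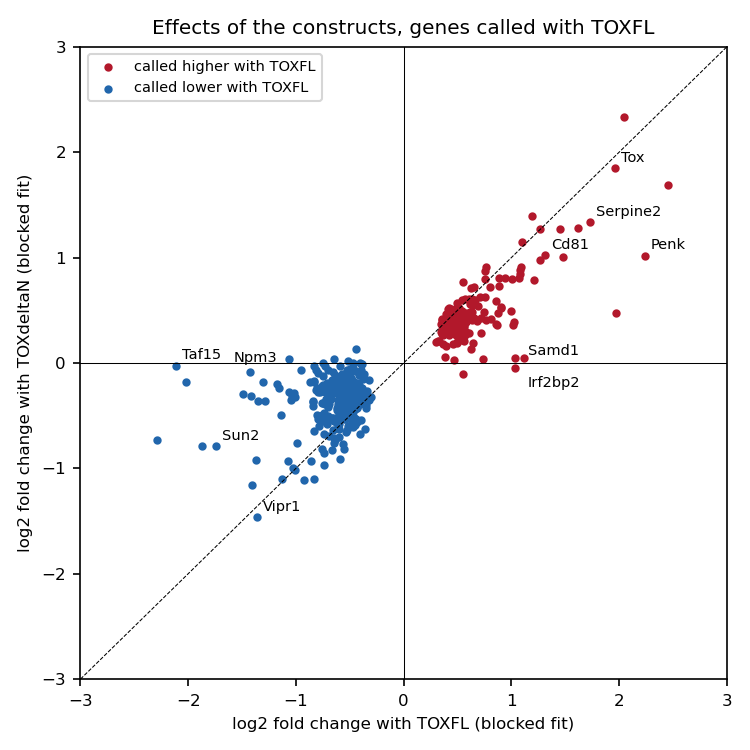
Log2 fold change of GFP-positive against GFP-negative cells with TOXdeltaN (vertical axis) against that with TOXFL (horizontal axis) in the blocked fit, for the genes called higher (red) or lower (blue) with TOXFL, with 2 called genes outside the axes; the dashed line marks equal values. Nearly all points lie in the quadrants of equal sign, and Taf15, Irf2bp2 and Samd1 lie near 0 with TOXdeltaN.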

How the data were processed

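RNA was sequenced from 8 libraries of 4 groups, 2 each, made per the labels' protocols from 8 ng of RNA with SMART-Seq v4 and Nextera XT kits, a chemistry that does not mark strand. Reads of a gene and an overlapping antisense gene therefore cannot be told apart. Tools named in the submitters' processing notes are bcl2fastq 2.20, cutadapt, STAR 2.6.1 and RSEM 1.2.28, with the build GRCm38. The deposited values are RSEM estimated counts in whole numbers, without normalisation, and the annotation release is not given in the sources used here. Of 31907 rows, 92 were ERCC spike-ins without counts and were left out. Symbols, lengths and coordinates come from GENCODE M21, which matched 31173 of 31815 gene identifiers with their version and 31748 without it.

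The model was edgeR 4.0.16 in R 4.3.3 (filterByExpr by group, TMM factors from 0.9894 to 1.02, quasi-likelihood F-test on group means of all 8 libraries, Benjamini-Hochberg adjustment over 13329 genes, threshold 0.05). Library totals over all groups were 25059112 to 31240067. A gene is called when its adjusted p lies under 0.05 in the fit named, and SE is the log2 fold change divided by the root of F. CPM are TMM-scaled, with 2 libraries per group given singly. DESeq2 1.42.0, limma 3.58.1 (voom), other scaling and filters, the TOXFL groups alone, a lowess length correction and the omission of each library were alternatives. The fit was also run on simulated counts, which held no shared deviation of replicates, unlike these data. That run therefore cannot show how the blocked fit behaves here.

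Every group has replicates 1 and 2, and what the number marks is not in the labels. Libraries of equal number deviated from their groups together in all 6 pairs of groups (correlations of 0.168 to 0.241 over tested genes), so the numbers were taken as a block (blocked fit). The pairing is inferred from the data, and 1 shared axis of variation that runs along the numbers would give the same signs. The biological coefficient of variation was 0.1321 without and 0.0958 with the block. Replicates differed by more than counting error (chi-square per degree of freedom 11.2 to 38.7).

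The comparison, gene lists and alternatives were chosen with earlier results of these data known. Named genes are all calls of the fit without the block, the 30 largest rises and 30 largest falls of the blocked fit with non-overlapping libraries, a mean over 8 CPM and an assigned symbol (those of sure role), called list members with uncalled examples, and the 5 largest blocked differences between constructs each way. Those of unsure role are left out, and a few others are not reported here. The uncalled examples and the retained rule genes were picked with their values seen. Promoters are RefSeq windows on GRCm38.p6 searched on both strands.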

Additional observations from a re-analysis of the deposited data

Results flagged for a closer look

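The effects of TOXFL and TOXdeltaN differed in DESeq2's test of the difference (TOXFL minus TOXdeltaN, without the block) for 7 genes. The log2 difference was -2.07 for Taf15 (SE 0.393), 1.09 for Irf2bp2 (SE 0.253) and -2.59 for Zfp91, a zinc finger protein gene (SE 0.611). For predicted genes it was 4.31 (Gm49342, SE 0.833), -2.02 (Gm4737, SE 0.361), -8.34 (Gm42417, SE 1.78) and 8.96 (Gm49356, SE 1.98). The adjusted p were 9.17e-04, 0.0382, 0.0422, 0.00104, 2.72e-04, 0.00878 and 0.0154 in this order. Levels of Zfp91 and the predicted genes in single libraries are not given here. Whether low counts in a group underlie the largest values is therefore not shown. With the replicate block DESeq2 called Dhx9 as well (log2 difference -0.924, adjusted p = 0.00381) and not Irf2bp2 or Zfp91. With the filter on low counts and all 8 libraries, neither edgeR nor limma-voom called any gene in this difference, with or without the block. In Irf2bp2 the TOXFL-negative cells stood below the TOXdeltaN-negative cells (71.2 and 103 against 157 and 155 CPM).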

How the results depend on the processing

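The count of 6 genes called with TOXFL was the same with RLE factors and the filter at 10 CPM, and 5 with limma-voom. It was 464 with the replicate block, 314 with DESeq2, 678 without a filter on low counts, 2 in a fit of the TOXFL groups alone and 1913 in that fit with the replicate block. Among the alternatives with the block it was 560 with the length correction, 761 with DESeq2, 461 with RLE factors and 489 with limma-voom, the last 3 chosen after seeing the data. Of the 464 blocked calls, 288 were among DESeq2's 314 and 447 among limma-voom's 489. Leaving out 1 library gave 0 to 122 calls without the block and 30 to 1772 with it. Omitting replicate 1 or 2 gave 0 or 0 calls (36 or 30 with the block) for TOXFL-negative, 38 or 0 (150 or 35) for TOXFL-positive, 1 or 1 (155 or 137) for TOXdeltaN-negative and 122 or 120 (1772 or 1749) for TOXdeltaN-positive. The causes were not tested.

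The difference between constructs was called for 0 genes in edgeR with and without the replicate block, 7 in DESeq2, 6 in DESeq2 with the block and 45 without a filter on low counts. Leaving out 1 library gave 0 to 1 without and 0 to 449 with the block, 449 without TOXdeltaN-positive replicate 1, 18 without TOXFL-positive replicate 1 and 4 without TOXdeltaN-positive replicate 2. Of 4611 values of 165 named or list genes under alternatives, 1 reversed in sign, that of Cd74. Its log2 fold change without the block was -0.0139 without TOXFL-positive replicate 2 and ranged from there to 1.71 over the omissions. These genes were chosen for a call, for libraries that do not overlap or for a large difference between constructs, so few reversals could occur. Against the fit without the block, 1855 of the values passed from not called to called and 38 from called to not called.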
